A study of Mus musculus with 36 samples.

Results

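The 10 genes described here encode enzymes and thiol carriers that keep red cells from being oxidized: Prdx2, Cat, Gpx1, Sod1, Glrx, Txn1, Glrx5, Gclm, Gclc and Gsr. They were taken by name, with every probe set whose only gene symbol in the array's annotation was one of them, which gave 21 probe sets of 45037 outside the controls and 10 genes of 18193. A probe set is a group of short oligonucleotides that reports on 1 transcript or a few. Of the 21 sets, 17 passed the filter on dim sets, a mean over all 36 arrays above log2 2.89. The sets left out by the filter were Sod1 1440222_at, 1447761_x_at and 1435304_at and Txn1 1456734_at, so no count below covers all member sets. Where a gene had several sets, the one with the highest mean represents it and the others are given beside it.

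Blood was drawn from the heart of 18 male mice aged 8 weeks, 3 from each of the inbred strains C57Bl/6J, DBA/2J, 129S1/ImJ, FVB/NJ, A/J and C3H/HeJ. The labels name no engineered allele and no treatment. Each mouse gave 2 Affymetrix arrays, 1 of whole blood RNA and 1 of RNA from the same mouse after the GLOBINclear kit had removed alpha and beta globin mRNA by capture on beads. That made 12 groups of 3 arrays, and values are deposited log2 expression summaries. The study asked how globin mRNA bears on array measurements of mouse blood.

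Red cells carry oxygen on iron, and hemoglobin that oxidizes on its own releases superoxide. Superoxide dismutase turns superoxide into hydrogen peroxide, which catalase, glutathione peroxidase and peroxiredoxin 2 remove by separate routes. The peroxidases depend on thiols that thioredoxin, the glutaredoxins and glutathione keep reduced, with NADPH as the source of electrons. Mature red cells have no nucleus, so blood RNA of these genes comes from reticulocytes, residual red cell RNA, platelets and white cells.

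On these bulk arrays, fewer cells of a type and less RNA per cell cannot be told apart. Of 11 listed red cell and reticulocyte markers 8 were matched and all 8 were tested, with Slc4a1 at log2 12.4 and Alas2 at 14.2, so red cell RNA was present as labelled. Their mean level per strain, over both preparations, ran from 7.73 in 129S1/ImJ and 8.39 in FVB/NJ to 9.29 in A/J. Of the 8, Tspo2, Tfrc and Rhag differed between strains (limma F test, adjusted p = 0.000188, 0.00119 and 0.037). The others, Slc4a1 and Alas2 among them, did not (adjusted p from 0.0616 to 0.686). Of 13 listed neutrophil markers 12 were matched, and Camp, Ltf, Elane and Mpo were below the filter. The neutrophil level stood at 6.23 in 129S1/ImJ replicate 3 and at 3.48 to 4.76 in the other mice. All 9 platelet markers differed between strains (limma adjusted p from 0.000141 to 0.0251), and their mean level ran from 9.83 in 129S1/ImJ and 9.98 in A/J to 10.94 in FVB/NJ and 11.04 in C57Bl/6J. Array correlations within a group were lowest for C57Bl/6J replicate 1, at 0.935 and 0.946, and 129S1/ImJ replicate 3, at 0.949 in whole RNA. The part of cell makeup in the strain differences below was not tested. Fits that carry a marker level as a covariate are given beside the results as a description. Since the platelet markers themselves differed between strains, fits with the platelet level cannot tell platelet content and strain apart, also where a call is lost.

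Promoter windows of 250 bases upstream of the transcription start were read for 8 of the 10 genes from RefSeq sequences on GRCm38.p6, a C57BL/6J reference. Gclc and Gsr had none. The letter patterns searched, on both strands, were TGACNNNGC, the core of the antioxidant response element bound by Nrf2, GATAA, a core of erythroid GATA1 sites, and CCNCNCCC, a core of the sites of Klf1-type factors. Capitals mark the matches. Glrx and Prdx2 are shown because their probe sets gave the widest strain differences, and Gclm and Sod1 because theirs were the windows with a TGACNNNGC match. The windows lie at chr13:75839635-75839884 (Glrx), chr8:84969372-84969621 (Prdx2), chr3:122245307-122245556 (Gclm) and chr16:90220512-90220761 (Sod1), all on the plus strand and written 5′ to 3′.
Glrx: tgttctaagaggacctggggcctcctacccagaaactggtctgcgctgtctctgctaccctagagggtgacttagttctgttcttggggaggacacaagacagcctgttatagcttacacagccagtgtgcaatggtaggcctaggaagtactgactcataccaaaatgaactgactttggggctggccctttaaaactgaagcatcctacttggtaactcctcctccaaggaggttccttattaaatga
Prdx2: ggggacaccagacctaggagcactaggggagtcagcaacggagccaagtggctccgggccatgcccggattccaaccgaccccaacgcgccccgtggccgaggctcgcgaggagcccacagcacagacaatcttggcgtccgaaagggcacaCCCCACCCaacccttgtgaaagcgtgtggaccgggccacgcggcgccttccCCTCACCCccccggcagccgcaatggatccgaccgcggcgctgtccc
Gclm: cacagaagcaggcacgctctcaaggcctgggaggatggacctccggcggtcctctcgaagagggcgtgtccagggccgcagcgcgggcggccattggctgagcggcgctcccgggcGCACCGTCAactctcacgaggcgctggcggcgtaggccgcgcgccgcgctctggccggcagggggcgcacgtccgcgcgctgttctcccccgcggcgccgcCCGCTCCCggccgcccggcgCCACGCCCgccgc
Sod1: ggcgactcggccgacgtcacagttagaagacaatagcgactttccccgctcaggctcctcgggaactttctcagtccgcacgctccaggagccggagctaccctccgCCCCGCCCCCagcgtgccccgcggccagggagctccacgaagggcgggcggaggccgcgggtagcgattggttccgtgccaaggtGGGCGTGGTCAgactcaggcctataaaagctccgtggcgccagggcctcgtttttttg

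TGACNNNGC was found in 2 of the 8 windows against 10.2% of 32851 promoters of that length. CCNCNCCC was found in 5 of 8 (Prdx2, Cat, Sod1, Txn1 and Gclm) against 45.9% of all, and GATAA in 0 of 8 against 22.6%. In Sod1 a TGACNNNGC match overlaps a CCNCNCCC match. The Glrx, Gpx1 and Glrx5 windows held none of these letter patterns, which says nothing about other parts of those genes. A match is a description of the letters, and these are sequences of 1 strain, so they show no difference between strains.

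Strain differences were seen in most of these genes. In the averages of each mouse's 2 arrays, 11 of 17 member sets, from 7 genes, differed between strains (limma F test, adjusted p under 0.05 over all 22518 tested sets), where 11.4% of all tested sets did. Brighter sets passed more often: among all tested sets the share called was 3.72% up to log2 3.5 and lay between 32.8% and 46.9% in the classes above log2 5. In whole RNA alone 8 member sets passed, against 4.32% of all sets. In GLOBINclear RNA alone 10 passed, against 11.2%. The 8 that passed in both preparations stand beside a share of 3.43%. The 6 sets that passed in none of these fits were those of Glrx5 and Txn1, both of Gsr, Gclc 1455959_s_at and Gclm 1439050_at.

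**Figure D1:**
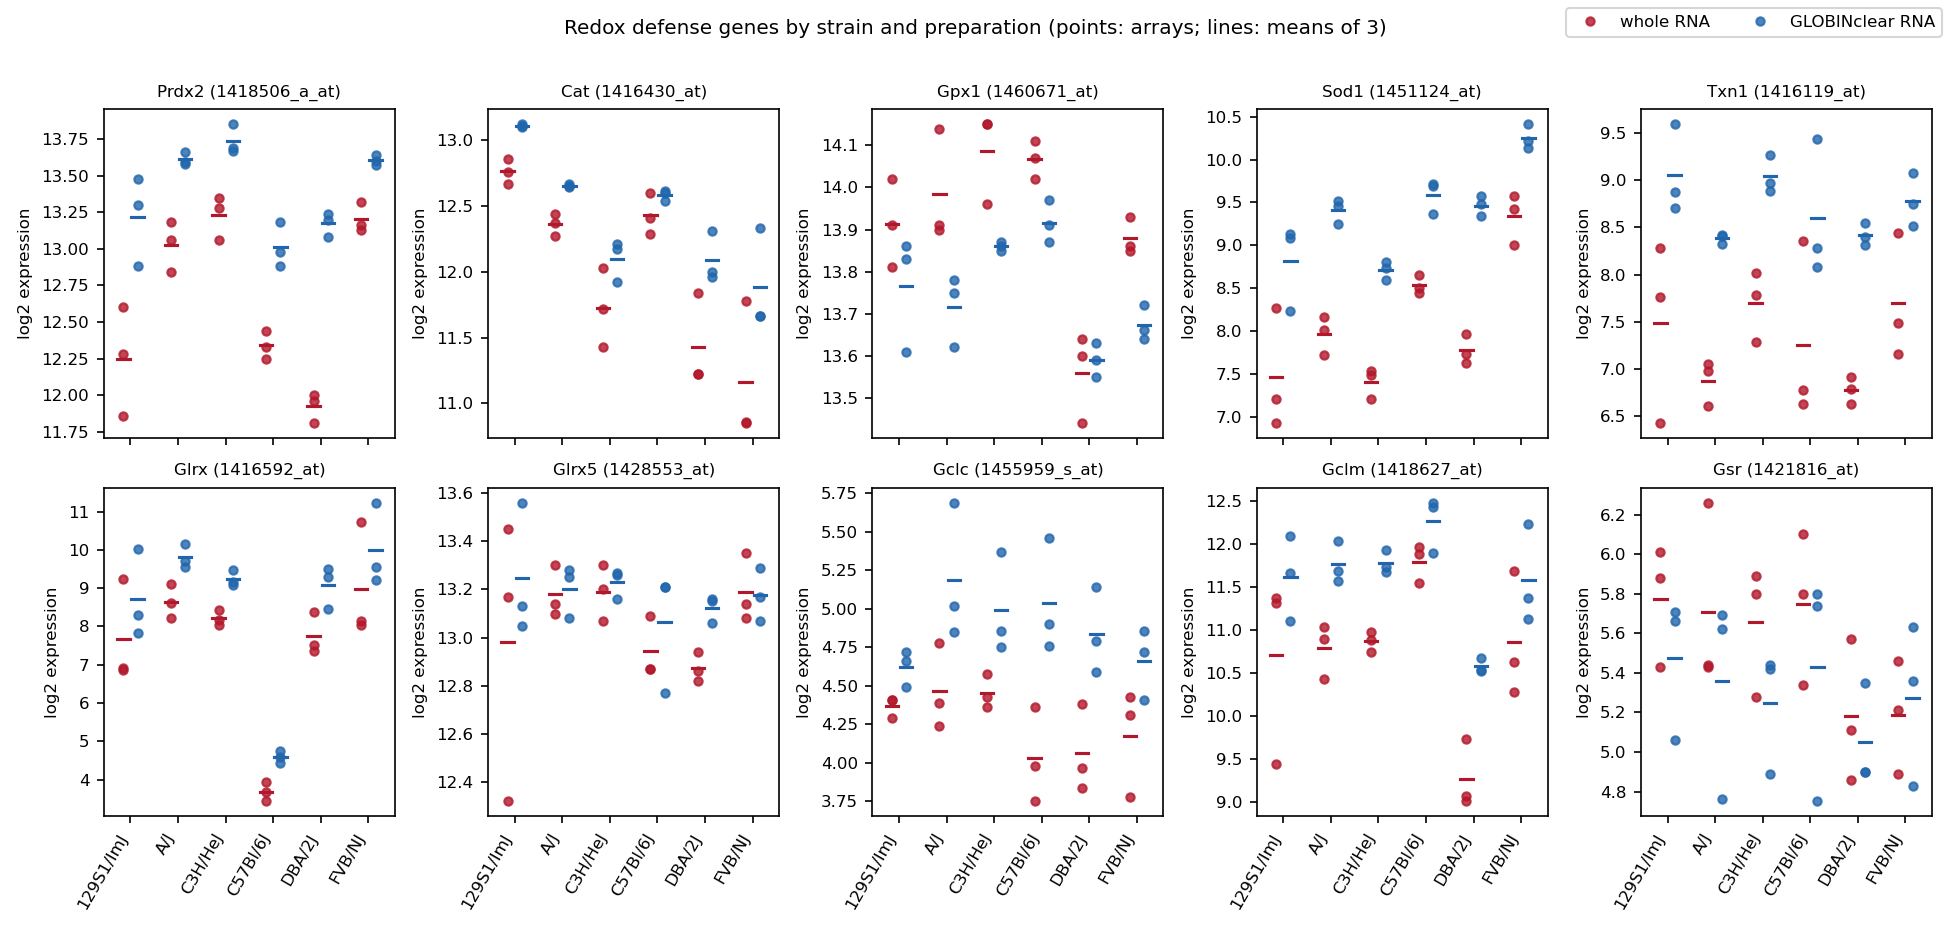
Log2 value of the representative probe set of each of the 10 genes (vertical axes) on every array, by strain (horizontal axes), with whole and GLOBINclear RNA in separate colours; points are arrays and lines are means of 3 mice. C57Bl/6J lies below all other arrays for Glrx in both preparations, and FVB/NJ lies above all others for Sod1 1451124_at within each preparation.

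Glrx, the glutaredoxin that removes glutathione from protein thiols, had the widest strain difference among the members. On set 1416592_at the C57Bl/6J mice gave 3.43, 3.68 and 3.94 in whole RNA and 4.75, 4.44 and 4.59 in GLOBINclear RNA. The 15 mice of the other strains gave 6.86, 8.18 and 10.72 (lowest, median and highest) in whole RNA and 7.82, 9.46 and 11.23 in GLOBINclear RNA. The C57Bl/6J arrays thus lay below every other array in both preparations. In the mouse averages C57Bl/6J stood 4.67 ± 0.46 (SE) log2 units below the mean of the other 5 strains, a 25.4-fold difference (adjusted p = 1.31e-05).

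The second set, 1416593_at, gave the same picture. C57Bl/6J arrays read 3.70, 3.57 and 3.54 in whole RNA and 3.53, 2.81 and 2.97 in GLOBINclear RNA, close to the filter. The other strains ranged from 6.78 to 10.49 and from 6.59 to 9.74, again with no overlap. The difference was 4.71 ± 0.47 log2 units, 26.3-fold (adjusted p = 1.61e-05). All 5 pairs of C57Bl/6J with another strain passed on each set, and none of the 10 pairs among the other strains did, where 3.51% of all sets and pairs passed (1.17% to 5.97% by pair). The C57Bl/6J level near the bottom of the scale makes the size of these folds less certain than their direction.

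Among the other strains the Glrx means on 1416592_at ran from 8.19 ± 1.25 (SD, n = 3) in 129S1/ImJ, 8.42 ± 0.521 in DBA/2J, 8.72 ± 0.197 in C3H/HeJ and 9.22 ± 0.358 in A/J to 9.48 ± 1.29 in FVB/NJ. Single mice set the spread in both strains at the ends of that order. FVB/NJ replicate 2 gave 10.72 and 11.23 beside 8.04 to 9.56 in its strain mates, and 129S1/ImJ replicate 2 gave 9.23 and 10.01 beside 6.86 to 8.30. The red cell marker level was high in the same mice, at 9.16 in FVB/NJ replicate 2 (7.97 and 8.02 in its mates) and 8.54 in 129S1/ImJ replicate 2 (7.21 and 7.44). FVB/NJ against the other 5 strains had an adjusted p of 0.0475 on 1416592_at and 0.0698 on 1416593_at, and the first kept its call in only 2 of 18 fits that each left out 1 mouse (adjusted p up to 0.334). With the red cell marker level as a covariate the C57Bl/6J difference was -4.88 on 1416592_at and -4.91 on 1416593_at. With the neutrophil level it was -4.88 and -4.93, and with the platelet level -3.74 and -3.55 (adjusted p = 0.0361 and 0.0476).

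**Figure D2:**
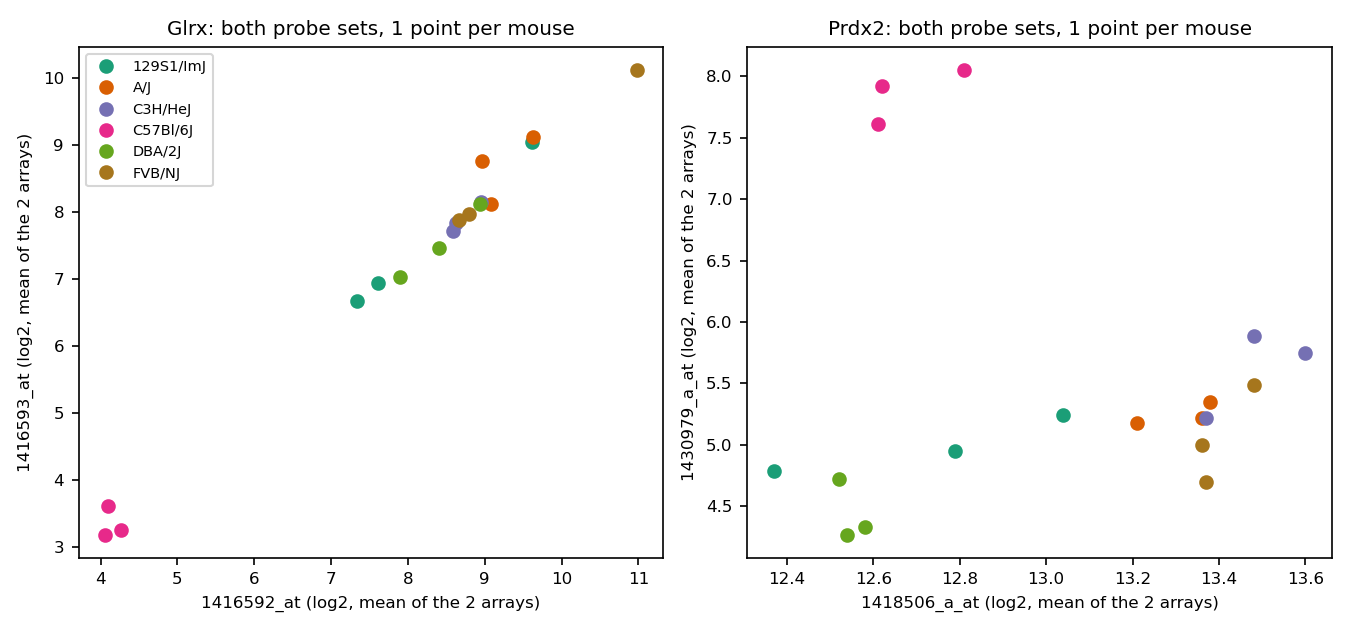
Both probe sets of Glrx (left) and of Prdx2 (right) plotted against each other in log2 units, 1 point per mouse (mean of its 2 arrays), coloured by strain. The Glrx sets place the mice in much the same order with C57Bl/6J at the bottom of both axes, whereas in Prdx2 the C57Bl/6J mice are highest on 1430979_a_at and among the lower mice on 1418506_a_at.

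Prdx2, an abundant thiol peroxidase of red cells, differed between strains on both sets, and the sets disagreed about C57Bl/6J. The representative, 1418506_a_at, split the strains into a higher group of C3H/HeJ (13.48 ± 0.113, SD, n = 3, mouse averages), FVB/NJ (13.40 ± 0.0662) and A/J (13.32 ± 0.0906) and a lower group of 129S1/ImJ (12.73 ± 0.339), C57Bl/6J (12.68 ± 0.116) and DBA/2J (12.55 ± 0.0280). All 9 pairs across these groups passed, the weakest being 129S1/ImJ against A/J (adjusted p = 0.0123), and none of the 6 pairs within them did. The grouping was read from these values.

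The arrays of whole RNA showed the same split for Prdx2 1418506_a_at. C3H/HeJ gave 13.06, 13.35 and 13.28, FVB/NJ gave 13.16, 13.32 and 13.13, and A/J gave 12.84, 13.18 and 13.06. By contrast 129S1/ImJ gave 11.86, 12.28 and 12.60, C57Bl/6J gave 12.33, 12.25 and 12.44, and DBA/2J gave 11.96, 12.00 and 11.81. No array of the lower strains reached the lowest of the higher strains in whole RNA. After globin reduction the higher strains read 13.57 to 13.85 and the lower strains 12.88 to 13.48, still without overlap. DBA/2J stood 0.58 ± 0.09 (SE) below the other 5 strains (adjusted p = 0.00278), and the value was -0.58 with the red cell covariate, -0.60 with the neutrophil covariate and -0.54 with the platelet covariate.

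The other Prdx2 set, 1430979_a_at, placed C57Bl/6J highest. Its arrays gave 6.81, 7.17 and 7.34 in whole RNA and 8.41, 8.66 and 8.76 in GLOBINclear RNA, against 3.76 to 5.28 and 4.63 to 6.80 in the other 15 mice. C57Bl/6J lay above every other array within each preparation, by 2.79 ± 0.18 log2 units or 6.90-fold in the mouse averages (adjusted p = 1.51e-07). On the representative set C57Bl/6J lay 0.42 ± 0.09 below the other 5 (adjusted p = 0.0148), a call lost without C57Bl/6J replicate 1 or replicate 2 (adjusted p up to 0.0975). DBA/2J was the lowest strain on both sets, by 1.32 on 1430979_a_at (adjusted p = 0.000542). Which transcripts each set reads was not analysed here, nor whether the strains differ in sequence under its probes. The sets are therefore given separately, and no total for Prdx2 in C57Bl/6J is drawn from them.

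Cat, catalase, was highest in 129S1/ImJ. On 1416430_at the 129S1/ImJ mice gave 12.67, 12.76 and 12.86 in whole RNA and 13.11, 13.12 and 13.10 in GLOBINclear RNA. The other strains gave 10.85, 11.84 and 12.60 (lowest, median and highest) and 11.66, 12.31 and 12.67. The 129S1/ImJ arrays were above all others in each preparation, narrowly so in whole RNA. The mean difference was 0.89 ± 0.14, or 1.86-fold (adjusted p = 0.00138).

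The red cell marker level (7.73) and the platelet level (9.83) were both lowest in 129S1/ImJ, while its neutrophil level was high in replicate 3 alone. The Cat difference was 1.19 with the red cell covariate (adjusted p = 0.00238) and 0.89 with the neutrophil covariate (adjusted p = 0.0272). With the platelet covariate it was 0.39 and did not pass (adjusted p = 0.631), although the F test over the 6 strains still did (adjusted p = 0.00107). In the order of means 129S1/ImJ (12.94), C57Bl/6J and A/J (both 12.51), C3H/HeJ (11.91), DBA/2J (11.76) and FVB/NJ (11.52), no neighbours were told apart, while 7 of the 15 pairs were. FVB/NJ lay 0.80 ± 0.14 below the other 5 strains (adjusted p = 0.00421), and without FVB/NJ replicate 3 the adjusted p was 0.0513. The second Cat set, 1416429_a_at, had 129S1/ImJ 0.74 ± 0.19 above the others (adjusted p = 0.0307), a call lost without 129S1/ImJ replicate 1 or replicate 3 (adjusted p up to 0.148) and with the red cell, neutrophil or platelet covariate (0.0723, 0.282 and 0.931).

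Gpx1, the selenium-dependent glutathione peroxidase, was lowest in DBA/2J, as was the representative set of Gclm. The Gpx1 set 1460671_at read 13.64, 13.44 and 13.60 in DBA/2J whole RNA against 13.81 to 14.15 elsewhere, and 13.59, 13.55 and 13.63 in GLOBINclear RNA against 13.61 to 13.97. The whole RNA values of DBA/2J did not overlap those of the other strains, and the GLOBINclear values overlapped at their edge. The difference was small, 0.31 ± 0.04 log2 units or 1.24-fold, yet larger than the spread within strains (adjusted p = 0.000417). DBA/2J was told apart from 4 of the other 5 strains and not from FVB/NJ (adjusted p = 0.0597). C57Bl/6J lay 0.19 ± 0.04 above the others (adjusted p = 0.0135), a call lost without C57Bl/6J replicate 2 or replicate 3 (adjusted p up to 0.0937). With arrays centred on the spike-in controls the DBA/2J difference was 0.23 in size and no longer passed (adjusted p = 0.191).

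Gclm, the modifier subunit of glutamate-cysteine ligase, which makes the rate-limiting step of glutathione synthesis more efficient, showed a wider gap. On 1418627_at DBA/2J gave 9.01, 9.73 and 9.07 in whole RNA and 10.68, 10.52 and 10.54 in GLOBINclear RNA. The other strains gave 9.45, 10.98 and 11.96 (lowest, median and highest) and 11.11, 11.73 and 12.48. In GLOBINclear RNA the DBA/2J arrays lay below all others, and in whole RNA only 129S1/ImJ replicate 3, at 9.45, fell within their range. That mouse is the one with the high neutrophil level.

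DBA/2J stood 1.48 ± 0.25 below the other 5 strains for Gclm 1418627_at, a 2.78-fold difference (adjusted p = 0.00348), and was told apart from each of them, the weakest being 129S1/ImJ (adjusted p = 0.0497). The value was -1.50 with the red cell covariate, -1.41 with the neutrophil covariate and -1.47 with the platelet covariate. C57Bl/6J had the highest mean, 12.03 ± 0.156 (SD, n = 3), and lay 1.05 ± 0.25 above the others (adjusted p = 0.0203), a call lost without any of its 3 mice (adjusted p up to 0.120). In whole RNA alone the F test missed the threshold (adjusted p = 0.0508), while in GLOBINclear RNA it passed (adjusted p = 0.00959). The second Gclm set, 1439050_at, had FVB/NJ as its lowest strain in both preparations, at 6.93 ± 0.337 (SD, n = 3) in whole RNA and 8.33 ± 0.291 in GLOBINclear RNA, beside 7.29 ± 0.0448 and 8.75 ± 0.236 in DBA/2J. Its F test in the averages missed the threshold (adjusted p = 0.0962), as did FVB/NJ against the other 5 strains, at -0.74 ± 0.20 (SE, adjusted p = 0.0552), and DBA/2J lay 0.27 ± 0.20 below the others. The FVB/NJ difference passed under median centring (adjusted p = 0.0494), both quantile normalizations (0.00968 within each preparation and 0.0116 over all arrays) and the neutrophil covariate (0.019), and not with the platelet covariate (0.588).

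Gclc, the catalytic subunit of the same ligase, was read by 2 dim sets. On 1424296_at the GLOBINclear values fell into higher strains (A/J 5.88 ± 0.263, C3H/HeJ 5.79 ± 0.454, C57Bl/6J 5.69 ± 0.723) and lower ones (FVB/NJ 4.54 ± 0.781, 129S1/ImJ 4.49 ± 0.333, DBA/2J 4.36 ± 0.321; SD, n = 3). The grouping was read from these means, and arrays of the higher and lower strains overlapped. The F test passed in GLOBINclear RNA (adjusted p = 0.0232) and in the averages (0.0268) but not in whole RNA (0.827), where the arrays ran from 3.01 to 4.32. None of the 15 pairs passed in the averages. Both calls were lost with no filter on dim sets (adjusted p = 0.0554 and 0.0563) and without A/J replicate 1, A/J replicate 3 or DBA/2J replicate 1 (adjusted p from 0.0511 to 0.066), and that in the averages also without DBA/2J replicate 2 (0.053). Without A/J replicate 2 the whole RNA test passed (adjusted p = 0.0422). The other Gclc set, 1455959_s_at, did not pass (adjusted p = 0.601).

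Sod1, the copper-zinc superoxide dismutase, was highest in FVB/NJ on both tested sets. On 1451124_at FVB/NJ gave 9.01, 9.42 and 9.58 in whole RNA and 10.22, 10.41 and 10.13 in GLOBINclear RNA. The other strains gave at most 8.66 and 9.72. The FVB/NJ arrays were above all others within each preparation. The difference was 1.28 ± 0.18, or 2.43-fold (adjusted p = 0.000703), and on 1459976_s_at it was 1.45 ± 0.18, or 2.74-fold (adjusted p = 0.000295).

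FVB/NJ had the lowest red cell marker level but one, and the highest platelet level but one after C57Bl/6J. The part of these levels in the Sod1 difference was not tested. The Sod1 difference was 1.36 and 1.52 with the red cell covariate and 1.09 and 1.22 with the neutrophil covariate, and it kept its call in all 4 fits. With the platelet covariate it was 1.14 on 1451124_at, which did not pass (adjusted p = 0.0759), and 1.41 on 1459976_s_at, which did (adjusted p = 0.0352). After FVB/NJ (9.80) the strains followed as C57Bl/6J (9.06), A/J (8.69), DBA/2J (8.62), 129S1/ImJ (8.14) and C3H/HeJ (8.06) on 1451124_at. No neighbours in that order were told apart, FVB/NJ and C57Bl/6J included (adjusted p = 0.121), though on 1459976_s_at that pair passed (adjusted p = 0.0225). C3H/HeJ lay 0.80 below the other 5 on 1451124_at (adjusted p = 0.0383, kept in 5 of 18 fits without 1 mouse) and 0.92 below on 1459976_s_at (adjusted p = 0.0150, kept in 16).

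Txn1, thioredoxin, which reduces the peroxiredoxins, was not told apart between strains (adjusted p = 0.629). Its means on 1416119_at ran from 7.60 ± 0.114 in DBA/2J to 8.37 ± 0.247 in C3H/HeJ. Single mice were high in several strains. C57Bl/6J replicate 1 read 8.36 and 9.43, beside 6.78 and 6.63 in the whole RNA and 8.28 and 8.08 in the GLOBINclear RNA of its strain mates. 129S1/ImJ replicate 3 read 8.28 and 9.59, beside 6.43 and 7.76 in whole RNA and 8.71 and 8.87 in GLOBINclear RNA. FVB/NJ replicate 2 read 8.44, the highest whole RNA value, beside 7.16 and 7.49. The first and second of these are also the mice with the lowest array correlations. In C57Bl/6J replicate 1 the T cell marker level was 6.32 (4.42 and 3.99 in its mates) and the B cell marker level 6.32 (5.79 and 4.61). In 129S1/ImJ replicate 3 and FVB/NJ replicate 2 both levels were the lowest of their strain. The part of array quality or cell makeup in these Txn1 values was not tested. Glrx5, a mitochondrial glutaredoxin that serves iron-sulfur cluster assembly and so heme synthesis, kept within 12.32 to 13.45 on the 18 whole RNA arrays, where the lowest value was 129S1/ImJ replicate 3. The F test gave an adjusted p of 0.925, and the largest difference of a strain from the others was 0.14 ± 0.11, below the others in DBA/2J. Gsr, which reduces glutathione disulfide with NADPH, gave adjusted p values of 0.765 and 0.878 on its 2 sets.

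**Figure D3:**
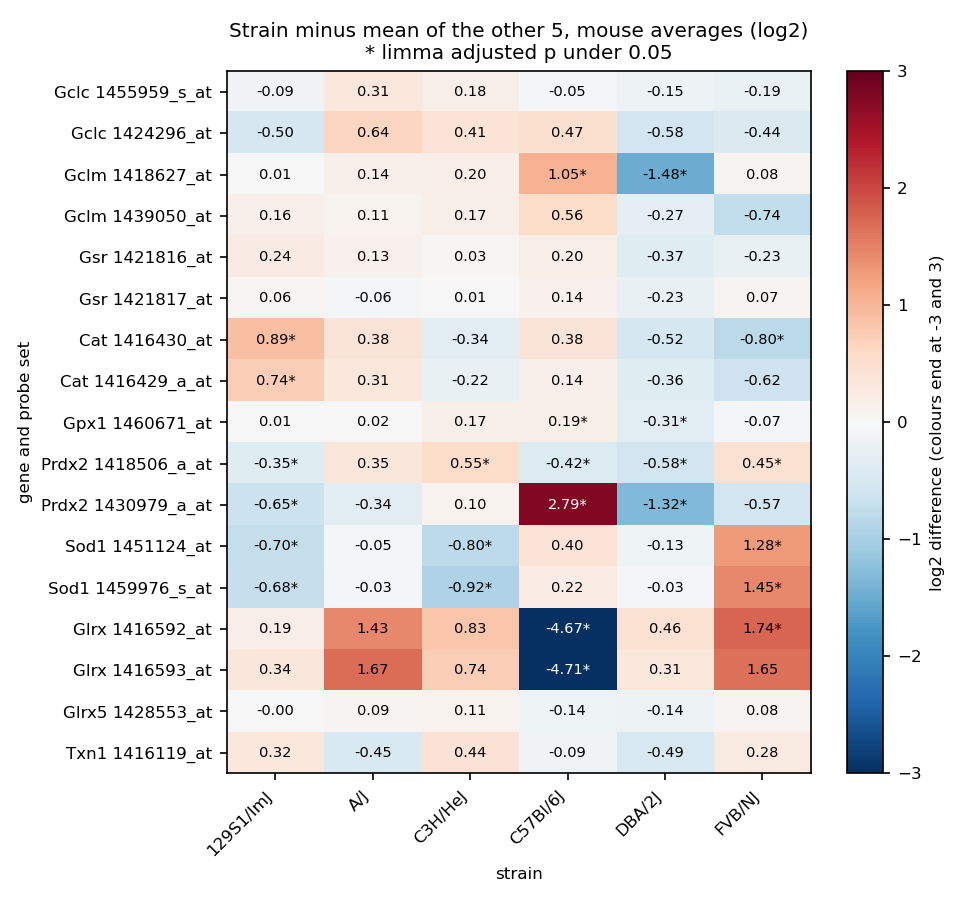
Difference of each strain from the mean of the other 5 strains in log2 units for each tested member set, from the mouse averages. Colour gives the size and direction, and marks show the differences that passed the limma test at an adjusted p under 0.05, the largest being C57Bl/6J for both Glrx sets.

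Over all sets, 24 contrasts of 1 strain with the other 5 passed, and 10 of them passed in each of the 18 fits that left out 1 mouse. Those 10 were C57Bl/6J for both Glrx sets and Prdx2 1430979_a_at, DBA/2J for Gclm 1418627_at, Gpx1 and both Prdx2 sets, FVB/NJ for both Sod1 sets and 129S1/ImJ for Cat 1416430_at. DBA/2J was lower for 4 of 17 member sets, where 1.11% of all tested sets were, and higher for 0, where 1.03% were. A/J had 0 passing contrasts, where 1.55% of all sets were higher and 1.69% lower. C57Bl/6J was higher for 3 (3.87% of all) and lower for 3 (1.93%), the higher being Prdx2 1430979_a_at, Gclm 1418627_at and Gpx1. FVB/NJ was higher for 4 (2.76% of all) and lower for 1 (0.995%), 129S1/ImJ higher for 2 (2.76%) and lower for 4 (3.02%), and C3H/HeJ higher for 1 (0.751%) and lower for 2 (0.635%). The 4 lower contrasts of 129S1/ImJ were both Prdx2 sets, each kept in 4 of the 18 fits without 1 mouse, and both Sod1 sets. Sod1 1451124_at was kept in 14 and 1459976_s_at in 6.

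Globin reduction moved most of the tested sets on the deposited scale, and the direction for many members depended on the scaling. On the deposited scale 13 of 17 member sets were higher after globin reduction, 3 lower and 1 not called, where 87.0% of all tested sets changed, 39.4% upward and 47.6% downward (limma, mouse as a block). Of all tested sets 3838 of 6886 rose between log2 3.5 and 5, 1648 of 1821 between 5 and 7 and 661 of 714 between 7 and 9. Higher up, 341 of 371 rose between log2 9 and 11 and 217 of 292 above 11. Up to log2 3.5, a class without member sets, 2159 of 12434 rose. The 39.4% is thus not the share at the levels of the members. The median member change was 0.73 log2 units against -0.05 over all tested sets, and the change varied with the level of the sets. The 6 member sets between log2 7 and 9 had a median of 1.11 against 1.36 over all sets there, and the 5 above log2 11 had 0.43 against 0.57. When all arrays were forced to 1 distribution (quantile normalization of all arrays), 3 member sets were higher and 9 lower. When arrays were centred on the spike-in controls, all 17 were higher. The median shift of all sets from whole to GLOBINclear RNA was then 1.99, beside -0.086 for the deposited values.

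**Figure D4:**
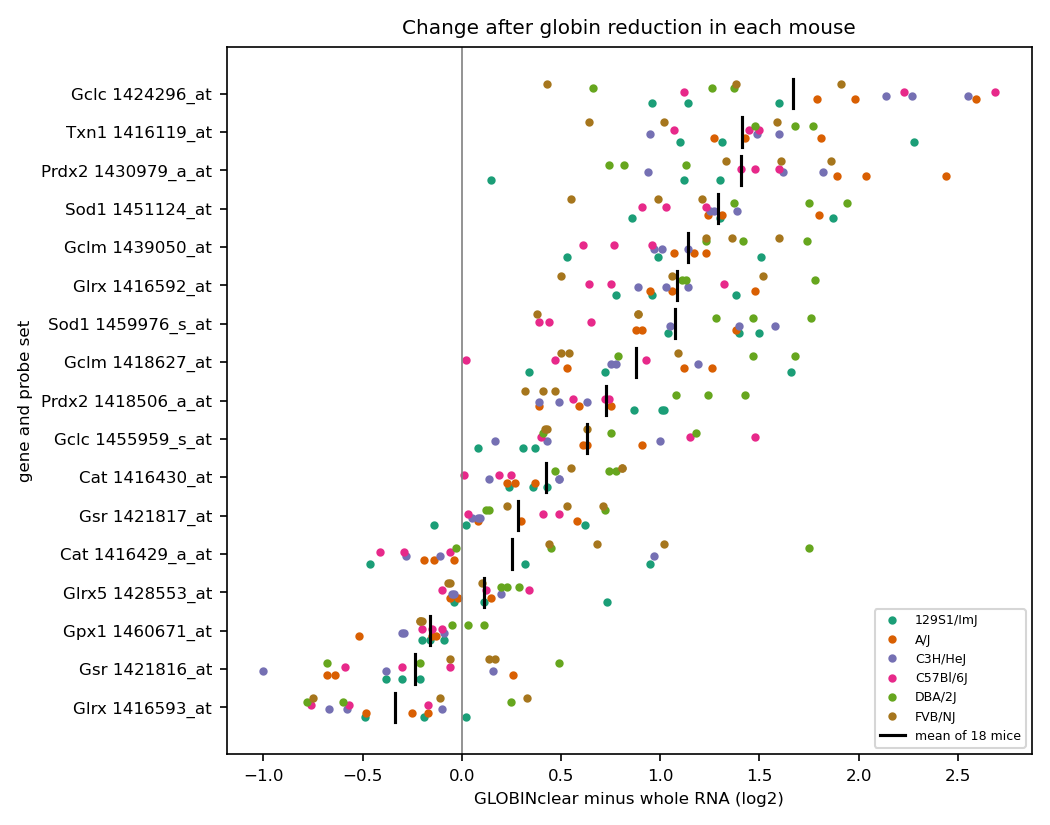
Change after globin reduction in each of the 18 mice (GLOBINclear minus whole RNA, log2, horizontal axis) for the 17 tested member sets, ordered by their mean (black bars) and coloured by strain, on the deposited scale. Prdx2, Txn1, Sod1 and Gclm sets lie right of 0 in all 18 mice and Gpx1 lies left of it in 16. These directions hold on this scale, with a change of sign for 8 sets under quantile normalization of all arrays and for 3 under spike-in centring. Of those 8, Glrx 1416592_at and Gclm 1439050_at did not pass after the change of sign.

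Both Prdx2 sets and Gclc 1424296_at passed as higher on the deposited scale and under each of the 4 other scalings. Under spike-in centring, however, all 17 member sets were higher. Median centring and quantile normalization within each preparation left median shifts of -0.0054 and -0.085, near that of the deposited values. These sets stood apart from the other members only under quantile normalization of all arrays. Prdx2 set 1418506_a_at went from 12.66 ± 0.552 (SD, n = 18) in whole RNA to 13.39 ± 0.304, a change of 0.73 ± 0.07 (SE) seen in 18 of 18 mice (adjusted p = 1.2e-08), and it rose by 0.48 under quantile normalization of all arrays. Set 1430979_a_at changed by 1.41 ± 0.12 and by 0.33. Gclc 1424296_at changed by 1.67 ± 0.15 and by 1.17. Txn1 rose by 1.41 ± 0.09 in 18 of 18 mice on the deposited scale and had 0.12 under quantile normalization, where it did not pass. Sod1 1451124_at behaved alike, with 1.29 ± 0.09 and 0.073, and so did Gclm 1418627_at, with 0.88 ± 0.10 and 0.030.

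For the remaining members the sign turned with the scaling. Under quantile normalization of all arrays Cat 1416430_at went from 0.43 ± 0.05 to -0.19 and Glrx5 from 0.11 ± 0.05 to -0.13. Sod1 1459976_s_at went from 1.07 ± 0.10 to -0.16. Glrx 1416592_at went from 1.08 ± 0.08 to -0.034, where it did not pass (limma adjusted p = 0.625). The sets that were lower on the deposited scale, Gpx1 (-0.16 ± 0.03), Gsr 1421816_at (-0.24 ± 0.09) and Glrx 1416593_at (-0.34 ± 0.08), turned to 1.92, 1.84 and 1.74 under spike-in centring, each below the shift of 1.99 in the median of all sets. The 2 Glrx sets and the 2 Gsr sets moved in opposite directions on the deposited scale. Cat 1416429_a_at, at 0.25 ± 0.14 (adjusted p = 0.0854), was the set not called.

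Prdx2 1418506_a_at was also the member set whose change differed between strains (interaction adjusted p = 0.00114, 1 of 17 against 2.75% of all sets). The 3 mice of DBA/2J changed by 1.24, 1.08 and 1.43, those of 129S1/ImJ by 1.02, 1.01 and 0.87, and those of FVB/NJ by 0.41, 0.32 and 0.47. The fitted changes were 1.25 in DBA/2J, 0.97 in 129S1/ImJ, 0.67 in C57Bl/6J, 0.58 in A/J, 0.51 in C3H/HeJ and 0.40 in FVB/NJ, each ± 0.07 (SE). The strains with the lowest whole RNA level thus changed most. The spread of strain means narrowed from 11.92 to 13.23 in whole RNA to 13.01 to 13.74 after globin reduction. The change is computed from the whole RNA value, so level and change are not independent. Among all tested sets the median change was 1.36 between log2 7 and 9 and 0.57 above log2 11. The part of a smaller change at the top of the scale in these strain differences was not tested. The interaction did not pass under quantile normalization of all arrays (adjusted p = 0.285), spike-in centring (0.128) or without the mouse block (0.0556).

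Other genes of the same pathways were taken from a list of 49, of which 44 were measured and 36 tested. In the mouse averages 10 of the 36 differed between strains, beside 11.4% of all sets. In whole RNA 2 did, beside 4.32%, and in GLOBINclear RNA 7, beside 11.2%. Each gene was represented by its brightest set. In the averages the share of all sets was 13.4% between log2 3.5 and 5 and 32.8% to 46.9% in the classes above log2 5. The counts by role that follow stand beside the same shares. Of 7 tested peroxiredoxin and thioredoxin genes 4 passed. Srxn1, sulfiredoxin, which repairs overoxidized peroxiredoxins, was lowest in 129S1/ImJ (5.35 ± 0.246, SD, n = 3, against 6.46 to 7.06 elsewhere, adjusted p = 0.00176 against the other 5). Prdx4, a peroxiredoxin of the secretory pathway, was highest in C3H/HeJ (5.48 ± 0.453, adjusted p = 0.0241).

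Of 7 glutathione genes 2 passed. Gpx4, which reduces lipid peroxides, ran from 10.4 in 129S1/ImJ to 11.7 in FVB/NJ (F test adjusted p = 0.00091). Glrx2, the mitochondrial glutaredoxin, ran from 6.19 in C57Bl/6J, the strain that was also lowest for Glrx, to 8.15 in 129S1/ImJ (adjusted p = 0.023). Of 6 NADPH supply genes 2 passed: Pgd, the second dehydrogenase of the pentose phosphate pathway, was lowest in FVB/NJ at 4.02 against 5.04 to 5.63 elsewhere (adjusted p = 0.00234), and Taldo1, transaldolase, was highest there at 12.0 against 11.4 to 11.8 (adjusted p = 0.0157). Neither Sod2, the mitochondrial dismutase (adjusted p = 0.278), nor Ccs, the copper chaperone for Sod1 (adjusted p = 0.598), passed. Of 14 regulators and targets 2 passed, Mafk, a small Maf partner of Nrf2, highest in A/J at 4.75 (adjusted p = 0.0199), and Blvrb, biliverdin reductase B, from 8.77 in 129S1/ImJ to 10.5 in C57Bl/6J (adjusted p = 0.038). On the deposited scale 32 of the 36 rose after globin reduction and 3 fell, with a median of 1.16. Of all tested sets 39.4% rose on that scale, and 1648 of 1821 did between log2 5 and 7. Under quantile normalization of all arrays 22 of the 36 rose and 10 fell, and under spike-in centring all 36 rose.

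The genes whose level followed each strain-variable member most closely over the 18 mouse averages are given as Pearson's r among all tested genes, as a description. The 18 points share 6 strains and the cell makeup of each blood sample. For Glrx they were Ranbp10 (0.968), Tmem234 (0.956) and Ubac1 (0.941). For Prdx2 1418506_a_at they were Mustn1 (0.883), Ndufb9 (0.873) and Cybrd1 (0.843). Sod1 had Capns1 (0.895), Hk1 (0.866) and Dnm1l (0.866), and Cat had Fam117a (0.873), Cdc25b (0.856) and Golm1 (0.823). Gclm had Dhrs11 (0.890), Ahsa1 (0.879) and Pcbp2 (0.876). Gpx1 had Pttg1 (0.843), Skp1 (0.771) and Gclm (0.770).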

How the data were processed

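Each array came as a column of log2 values deposited by the authors, whose scale was judged from their range. GCRMA, MAS5 and affy were used, per the submitters' processing notes, without a version, role or order. Any joint normalization of whole and GLOBINclear arrays was not given in the sources used here. GLOBINclear started from 10 µg of RNA, per the labels' protocols. Precision is limited by the number of arrays. The p-values of the strain fits measure the spread of levels between mice. Those of the fits with the mouse as a block measure the spread between mice of the change from whole to GLOBINclear RNA.

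Of 45101 probe sets, 64 controls were set aside, and sets whose mean over the 36 arrays exceeded the median (log2 2.89) were tested, 22518 in all. Of the sets outside the controls 34945 had 1 symbol, 932 several and 9160 none. All 21 member sets matched a current gene table by Entrez number and 0 symbols changed.

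Fits used limma 3.58.1 in R 4.3.3 (eBayes with an intensity trend, Benjamini-Hochberg over all tested sets, threshold 0.05), and were tested on simulated data. The globin reduction effect and its interaction with strain had the mouse as a block, since the design pairs the arrays of a mouse. As a check, deviations from group means correlated above 0.1 within 17 of 18 mice (range -0.0783 to 0.664). Strains were compared within each preparation and on mouse averages by F test, each against the other 5, and in 15 pairs. All probe sets of the 10 genes were named. Of other redox genes, up to 2 per role were named, and for each strain-variable member the 3 genes of highest correlation. Figures were drawn with matplotlib 3.10.9. The members, gene lists and markers were chosen with earlier results of these data known. The labels write the last strain of their protocol text as 129S1/SvImJ and its strain field as 129S1/ImJ, which is used here. Probe sequences and exon positions were not used here, so sequence differences between strains under the probes were not examined for any member set.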

Additional observations from a re-analysis of the deposited data

Results flagged for a closer look

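The change of Prdx2 1418506_a_at after globin reduction differed between strains by a test of the difference itself (limma interaction F test, adjusted p = 0.00114), with fitted changes from 0.40 in FVB/NJ to 1.25 in DBA/2J and all 18 mice in the same direction on the deposited scale. No other tested member set passed that test. The set lies high on the scale, and the part of its level in the difference was not tested.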

How the results depend on the processing

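On the deposited scale 16 member sets changed after globin reduction, 13 higher and 3 lower, 1 had an effect that differed by strain, and 8, 10 and 11 differed between strains in whole RNA, GLOBINclear RNA and the averages. Quantile normalization of all arrays gave 3 higher and 9 lower. It turned the sign of Cat 1416429_a_at (-0.65, not called on the deposited scale), Cat 1416430_at (-0.19), Gsr 1421817_at (-0.67) and Glrx5 1428553_at (-0.13). The sign also turned for Gclc 1455959_s_at (-0.23) and Sod1 1459976_s_at (-0.16). Glrx 1416592_at (-0.034) and Gclm 1439050_at (-0.12) turned sign without passing (limma adjusted p = 0.625 and 0.17). Spike-in centring gave 0 lower and 0 interactions, and reversed Glrx 1416593_at (1.74), Gsr 1421816_at (1.84) and Gpx1 1460671_at (1.92). A mean of at least log2 4, or no intensity trend, gave 2 interactions. The mean of all sets of a gene, with fewer features tested, gave 9 changed (8 higher, 1 lower), 0 interactions, and 5, 6 and 6 strain differences, and Gsr turned to 0.023. Without the replicate block (the mouse pairing), 1 set was lower and 0 had an interaction, and Glrx 1416593_at, Gsr 1421816_at and Glrx5 lost their calls. Leaving out 1 mouse at a time gave 1 to 2 interactions, the 2 being without C3H/HeJ replicate 3, DBA/2J replicate 1 or FVB/NJ replicate 2, and 9 to 11 strain differences in the averages, with the F test of Cat 1416429_a_at losing its call in 10 of 18 such fits. Glrx5 lost its globin reduction call without C57Bl/6J replicate 2 or DBA/2J replicate 1. The cause of these changes was not tested. The strain contrasts of Glrx, Prdx2, Sod1, Gclm 1418627_at and Cat 1416430_at given with their leading strain kept their call under all 4 other scalings. With the platelet level as a covariate 10 member sets differed between strains in the averages, and the leading contrasts of both Cat sets and Sod1 1451124_at and the F test of Cat 1416429_a_at lost their calls. The fits with the platelet covariate and those that left out each mouse for every passing contrast were added after the data were seen. Sets near the bottom of the scale, such as Glrx in C57Bl/6J, carry background, which limits the size of their differences.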

Other observations

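Genes next to the members in gene order were looked up after the strain differences were seen, the nearest 2 tested genes on each side, with the strain that differed most from the other 5. Next to Prdx2, Klf1, an erythroid transcription factor, was lower in C57Bl/6J by 2.32 ± 0.38 (SE) log2 units (limma adjusted p = 0.00178). Next to Glrx, Ell2, an elongation factor, was lower in C57Bl/6J, the difference being -1.69 ± 0.29 (adjusted p = 0.00228), while Cast (adjusted p = 0.093), Rhobtb3 and Spata9 did not pass. Beside Gsr, itself not told apart between strains, Ppp2cb and Gtf2e2 were higher in C57Bl/6J by 1.08 ± 0.14 and 0.76 ± 0.13 (adjusted p = 0.000279 and 0.00251). Beside Gpx1, Usp4 was lower in C57Bl/6J, at -1.03 ± 0.22 (adjusted p = 0.00972). Beside Txn1, Ptpn3, a dim set, was higher in FVB/NJ by 0.60 ± 0.12 (adjusted p = 0.0109). The strain was chosen by its p-value in each case, so these are values to look at and support nothing.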
